A study of Mus musculus with 2 samples.

Results

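The genes described are 10 genes of replication licensing and of the G1/S transition: *Mcm2*, *Mcm3*, *Mcm4*, *Mcm6*, *Mcm7*, *Cdc6*, *Ccne1*, *Ccne2*, *Ung* and *Pcna*. They were chosen by name, and are 10 of the 31053 genes counted. The data are single-cell RNA-seq of parental E14 mESCs (WT, wild-type genotype) and of E14 mESCs in which *Smad1* and *Smad5* were targeted with CRISPR-Cas9 (S1/5 dKO), with 1 library each and no replicates. Both cultures were feeder-free on gelatin in SL (15% FBS and 1000 U/ml LIF). The labels do not say which S1/5 dKO line was sequenced.

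The libraries were made with the 3′ v3 chemistry of 10x Genomics, which tags mRNA molecules near their 3′ ends with unique molecular identifiers (UMIs), so that a UMI stands for a captured molecule. WT had 100446187 UMIs in the deposited matrix, and the S1/5 dKO-labelled library had 113937221. A barcode counted as a cell with no fewer than 1000 detected genes and no more than 5% of UMIs from mitochondrial genes, the limits of the study. These limits kept 2236 WT cells (95965242 UMIs) and, in the S1/5 dKO-labelled library, 2910 cells (109020533 UMIs). A WT cell held a median of 38662 UMIs, and a cell of the other library 34548.5. The libraries shared 0 cell barcodes. The 10 genes took 104753 UMIs in WT (0.109% of all) and 122720 UMIs in the S1/5 dKO-labelled library (0.113%).

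Before a cell copies its DNA, origins of replication are licensed: the origin recognition complex, CDC6 and CDT1 load the ring-shaped MCM2-7 helicase onto DNA in late mitosis and G1. Cyclin E with CDK2 then helps to start S phase, in which PCNA clamps the polymerases to the template and UNG removes uracil from the new DNA. Many genes of these proteins are targets of E2F factors, and mESCs are known for a short G1 phase and for high cyclin E and CDK2 activity through much of the cycle.

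The label of the knockout library was checked first. *Smad1* mRNA was at 13.4 CPM (UMIs of a gene per 1000000 UMIs of the library; 1285 UMIs) in WT and at 9.17 CPM (1000 UMIs) in the S1/5 dKO-labelled library, a log2 ratio of −0.55 (95% counting interval −0.67 to −0.43). *Smad5* mRNA was at 6.05 CPM (581 UMIs) in WT and at 9.09 CPM (991 UMIs) in the other library, a log2 ratio of 0.59 (0.44 to 0.74). The *Smad5* level thus goes against the label, although a 3′ tag can lie outside the edited part of a gene, and the library is called the "S1/5 dKO-labelled library" throughout. *Id1*, *Id2* and *Id3*, known target genes of SMAD1/5 that were looked at after the *Smad* levels were seen, were all lower there, at 323, 57.1 and 103 CPM in WT against 161, 16.8 and 61.5 CPM, with log2 ratios of −1.01 (−1.03 to −0.98), −1.76 (−1.84 to −1.69) and −0.75 (−0.79 to −0.70). These values run with the label. The lower *Smad1* level was not particular to that gene. On the same stretch of chromosome 8, the 19 other genes near *Mcm5* described below were all lower too, with a median log2 ratio of −0.56. The cells carried the markers of pluripotency: the 8 pluripotency markers *Pou5f1*, *Sox2*, *Nanog*, *Zfp42*, *Esrrb*, *Klf4*, *Tfcp2l1* and *Dppa5a* summed to 6863 CPM in WT against 7112 CPM in the S1/5 dKO-labelled library, with *Dppa5a* the most abundant, 0 of them at 0 and 7 higher in the latter.

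Markers of other cell types were scarce. The 6 fibroblast markers summed to 0.802 CPM in WT against 1.046 CPM in the S1/5 dKO-labelled library, most of it *Thy1*, and *Col3a1* and *Lum* had 0 UMIs in both libraries. The 6 primitive endoderm markers, led by *Gata6*, summed to 2.65 and 2.52 CPM, and the 6 primed markers, led by *Pou3f1*, to 23.5 and 26.8 CPM. The 5 markers of 2-cell-like cells, led by *Zscan4d*, summed to 1.96 CPM in WT against 4.30 CPM in the other library. Most of the difference was *Tcstv3* (14 and 177 UMIs): without it the sums were 1.81 and 2.68 CPM, with 2 of the 4 markers higher and 2 lower. Their part in the values below was not tested.

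The MCM genes encode subunits of the helicase ring, and 5 of its 6 subunits are among the 10 genes. On GRCm38, *Mcm2* (ENSMUSG00000002870) lies at chr6:88883474-88898780, *Mcm3* (ENSMUSG00000041859) at chr1:20802968-20820312 and *Mcm4* (ENSMUSG00000022673) at chr16:15623897-15637400, all on the minus strand. *Mcm6* (ENSMUSG00000026355), at chr1:128331590-128359664, and *Mcm7* (ENSMUSG00000029730), at chr5:138164583-138172422, are on the minus strand too. *Cdc6* (ENSMUSG00000017499), the loader of the ring, lies at chr11:98907801-98923940 on the plus strand. Cyclin E comes from *Ccne1* (ENSMUSG00000002068, chr7:38097984-38107534, minus strand) and *Ccne2* (ENSMUSG00000028212, chr4:11191351-11204779, plus strand). *Ung* (ENSMUSG00000029591), for the uracil-DNA glycosylase, lies at chr5:114130386-114139323 on the plus strand, and *Pcna* (ENSMUSG00000027342), for the sliding clamp, at chr2:132249162-132253314 on the minus strand. The 10 genes thus lie on 8 chromosomes and form no cluster, and GENCODE places *Cops6* and *Ap4m1* over *Mcm7*, and *Ints8* over *Ccne2*, on the opposite strand, neighbours looked up after the values were seen.

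RefSeq promoters of GRCm38.p6, each from 250 bases before to 50 bases after a gene's start, were at hand for 8 of the 10 genes, and *Mcm4* and *Ccne2* have no entry. They were searched on both strands for the E2F-type words TTTCGCGC, TTTGGCGC, TTTCCCGC and TTTGCCGC. At least 1 match lay in 4 of the 8 (*Mcm3*, *Mcm6*, *Mcm7* and *Cdc6*), against 2.26% of 32851 promoters of the same length. CCAAT lay in 5 of the 8, against 37.4% of all promoters, and TTTGAA or TTCGAA in 2, against 19.2%. These words were chosen as known motifs of cell cycle promoters, a match describes letters only, and the windows without a match say nothing of the factors. The 250 bases before the start are shown for 4 genes, with E2F-type words in capitals: for *Mcm6* and *Mcm2* as helicase genes with and without such a word, and for *Ccne1* and *Ung* as the pair with the highest correlation across cells. They come from chr1:128359706-128359955 (minus strand), chr6:88898781-88899030 (minus strand), chr7:38107491-38107740 (minus strand) and chr5:114130185-114130434 (plus strand), in this order, and the last bases of the *Ccne1* and *Ung* windows overlap the GENCODE genes.
Mcm6: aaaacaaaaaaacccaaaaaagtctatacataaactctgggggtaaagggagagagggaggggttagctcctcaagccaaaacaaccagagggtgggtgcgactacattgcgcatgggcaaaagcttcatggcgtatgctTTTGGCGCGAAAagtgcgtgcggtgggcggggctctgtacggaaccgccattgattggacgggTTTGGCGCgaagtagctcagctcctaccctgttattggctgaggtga
Mcm2: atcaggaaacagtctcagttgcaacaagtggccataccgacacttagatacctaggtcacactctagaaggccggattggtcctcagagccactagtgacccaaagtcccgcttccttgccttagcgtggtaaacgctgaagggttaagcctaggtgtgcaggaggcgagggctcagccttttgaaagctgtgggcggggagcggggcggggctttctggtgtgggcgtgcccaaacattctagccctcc
Ccne1: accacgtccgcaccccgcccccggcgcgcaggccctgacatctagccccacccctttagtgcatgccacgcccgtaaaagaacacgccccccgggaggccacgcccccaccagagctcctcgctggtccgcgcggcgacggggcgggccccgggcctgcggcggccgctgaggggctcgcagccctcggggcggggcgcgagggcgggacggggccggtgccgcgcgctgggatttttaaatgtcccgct
Ung: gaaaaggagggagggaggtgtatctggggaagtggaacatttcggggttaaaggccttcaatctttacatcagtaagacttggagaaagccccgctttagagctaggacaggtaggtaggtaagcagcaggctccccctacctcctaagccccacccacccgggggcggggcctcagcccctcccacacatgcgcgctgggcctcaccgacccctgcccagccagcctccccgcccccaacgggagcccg
In *Mcm6*, 2 of the 3 matches overlap, a TTTGGCGC that begins 110 bases before the start and a TTTCGCGC read on the other strand. *Cdc6* holds TTTCCCGC on the other strand, 138 bases before its RefSeq start, and the E2F-type words of *Mcm3* lie after its start. The RefSeq starts used for *Cdc6*, *Mcm7* and *Pcna* also lie inside the GENCODE genes, and *Mcm7* has 2 entries, of which 1 holds E2F-type words. For *Cdc6* and both entries of *Mcm7* all 250 bases before the RefSeq start lie inside the GENCODE gene. The E2F-type words of these genes thus lie after the GENCODE start.

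The first comparison asked how far the mRNA levels of the 10 genes differed between WT and the S1/5 dKO-labelled library. They differed little: together the genes stood at 1092 CPM in WT against 1126 CPM in the other library, and the median log2 ratio of the S1/5 dKO-labelled library over WT was 0.031, a value that turned to −0.0067 with each cell thinned at random to 10000 UMIs. The helicase genes and *Pcna* were the closest to 0, and *Ccne1*, *Ccne2*, *Cdc6* and *Ung* were higher in the S1/5 dKO-labelled library by 6.96% to 15.7%. At least a 1.2-fold difference was seen for 0 of 10 genes, against 10.4% of the 9691 genes with a sum over both libraries of at least 500 UMIs, and a 2-fold difference for 0 of 10, against 0.361%. With 10 genes, a count of 0 is close to these shares. The median size of the log2 ratio, whatever its sign, was 0.058 for the 10 genes and 0.081 for the 9691. By direction, 6 genes were higher and 4 lower in the S1/5 dKO-labelled library, where 48.6% of the 9691 genes were higher. The counting interval lay above 0 for 5 of the 10, below 0 for 1 and across 0 for 4. The share of all genes with an interval clear of 0 was not computed, so these counts only describe the 10 genes. With 1 library per condition no test was possible, and all intervals in this account cover counting error alone, not the spread between cultures.

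Among the helicase genes, *Mcm3* was at 197 CPM in WT against 203 CPM in the S1/5 dKO-labelled library, a log2 ratio of 0.049 (0.021 to 0.077). *Mcm2* was at 108 and 103 CPM, a log2 ratio of −0.067 (−0.11 to −0.028), the lowest of the 10. The other 3 helicase genes differed by less than counting error. *Mcm4* was at 121 CPM in WT against 122 CPM in the other library, *Mcm6* at 111 CPM in both, and *Mcm7* at 183 and 181 CPM. Their log2 ratios, 0.013, −0.0046 and −0.0097, changed sign with the processing: with DESeq2 size factors *Mcm6* came to 0.0023, with equal weight for all positions in the cycle *Mcm4* came to −0.032, and with the thinned cells *Mcm7* came to 0.028.

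The ring has 1 more subunit, MCM5, and its gene stood apart. *Mcm5* was at 226 CPM in WT against 138 CPM in the S1/5 dKO-labelled library, a log2 ratio of −0.71 (−0.75 to −0.68), and lay between −0.73 and −0.70 under the 10 alternative settings. Its share of the UMIs of the 6 subunits was 23.9% in WT (exact binomial interval 23.7 to 24.2%) and 16.1% in the other library (15.8 to 16.3%), while the summed level of the 6 went from 945 CPM to 858 CPM. *Mcm5* lies at chr8:75109569-75128439, 4.21 Mb from *Smad1*. Of the 20 nearest genes with at least 500 UMIs, 10 on each side, 1 is *Smad1* itself. Of the other 19, 19 were lower in the S1/5 dKO-labelled library and 18 of them by at least 1.2-fold, with a median log2 ratio of −0.56, where 51.4% of the 9691 genes were lower and 5.75% by at least 1.2-fold. This look at the neighbours, and the shares of the ring, were added after the values of *Mcm5* were seen.

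*Cdc6*, whose protein loads the ring, was at 30.8 CPM in WT against 32.9 CPM in the S1/5 dKO-labelled library, a log2 ratio of 0.097 (0.026 to 0.17). *Ccne1* was at 217 and 236 CPM, a log2 ratio of 0.12 (0.098 to 0.15). *Ccne2* had the fewest UMIs of the 10, 688 in WT against 904 in the other library, and its levels of 7.17 CPM (6.64 to 7.73) and 8.29 CPM (7.76 to 8.85) gave a log2 ratio of 0.21 (0.065 to 0.36). Both cyclin E genes were thus higher in the S1/5 dKO-labelled library, *Ccne2* with the wider interval. *Ung* was at 69.2 CPM in WT against 79.6 CPM in the other library, a log2 ratio of 0.20 (0.16 to 0.25). *Ccne1*, *Ccne2* and *Ung* kept this direction under the 10 alternative settings, whereas *Mcm3* and *Cdc6* did not: with the thinned cells, a single random draw, their log2 ratios were −0.026 (−0.083 to 0.031) and −0.038 (−0.18 to 0.10), within counting error of 0. The same cells unthinned gave 0.050 and 0.096, and means of per-cell CPM gave 0.022 and 0.072. In the thinned cells *Ccne2* passed 1.2-fold, at a log2 ratio of 0.31 (0.025 to 0.61).

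*Pcna* was at 49.2 CPM in WT against 48.6 CPM in the S1/5 dKO-labelled library, a log2 ratio of −0.016 (−0.073 to 0.041). A processed copy, *Pcna-ps2*, was counted as a gene of its own with 2688 UMIs in WT and 3058 in the other library, which is 36.3% and 36.6% of the UMIs of both together. With the copy included the log2 ratio was −0.0096 (−0.055 to 0.036). How reads were divided between gene and copy is not known, so the level of *Pcna* is uncertain, but the share was alike in both libraries. *Pcna-ps2* was named after its values were seen.

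**Figure D1:**
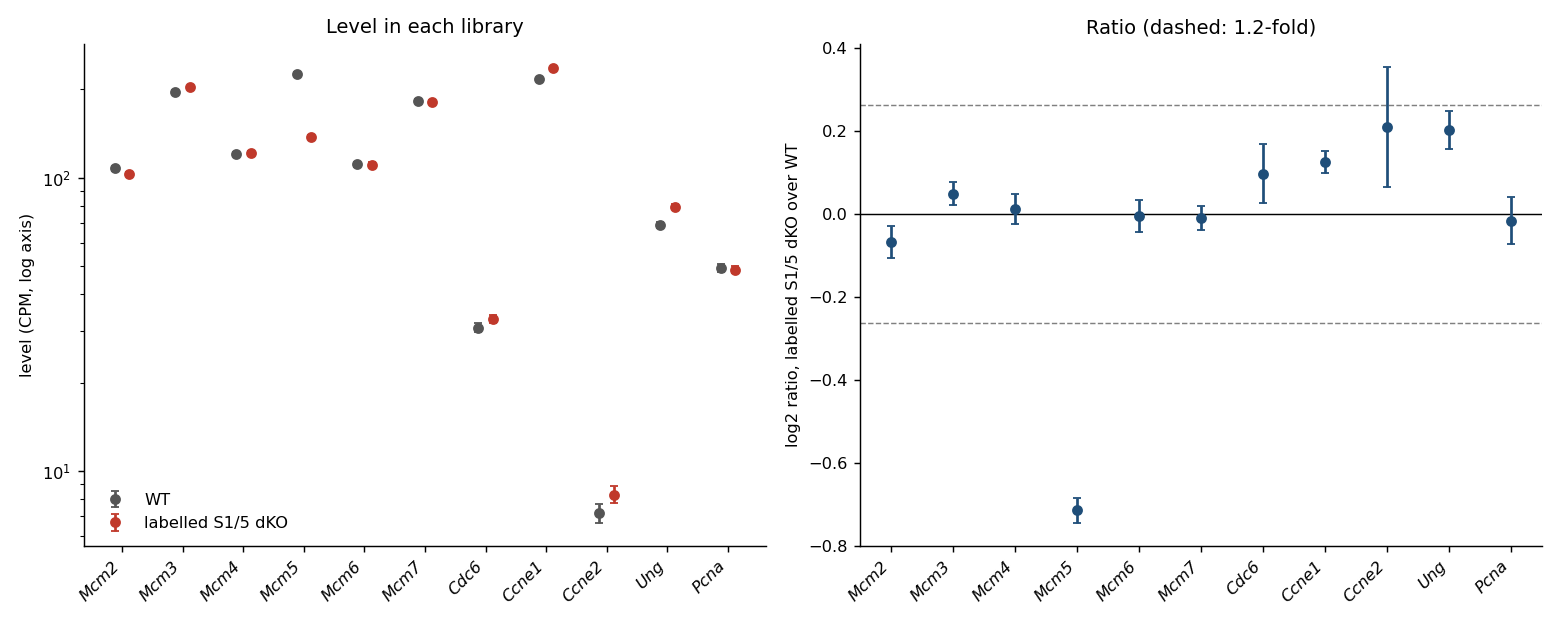
Left, the level of the 10 genes and of *Mcm5* in each library, in CPM on a log axis, with exact 95% Poisson intervals. Right, the log2 ratio of the S1/5 dKO-labelled library over WT with exact 95% counting intervals, the dashed lines marking 1.2-fold. The 10 genes lie between −0.067 and 0.21, *Mcm6* on either side of 0 depending on the scaling, and *Mcm5* lies at −0.71.

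Other genes of DNA replication also differed little apart from *Mcm5*. In the list for origin licensing, with subunits of the origin recognition complex, *Cdt1* and its inhibitor *Gmnn*, 8 of 10 genes were higher in the S1/5 dKO-labelled library and the median log2 ratio was 0.046. *Gmnn* (0.20) and *Cdt1* (0.10) were at the top, and *Mcmbp* (−0.037) and *Mcm5* (−0.71) at the bottom. In the list for helicase activation 9 of 16 were higher, with a median of 0.016. Here *Mcm10* (0.19) and *Gins3* (0.13) were highest, and *Cdc7*, a kinase that acts on the MCM ring (−0.10), and *Recql4* (−0.095) lowest.

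Among 24 G1/S regulators 12 were higher, with a median log2 ratio of 0.015. *Rbl2*, of the retinoblastoma family (−0.50), and *Ccnd2*, a D-type cyclin (−0.48), were lower by at least 1.2-fold, while *Ccnd3* (0.17) and the E2F partner *Tfdp1* (0.11) were highest. In the list for DNA synthesis and nucleotide supply 21 of 28 genes were higher and the median was 0.070. The clamp loader gene *Rfc5* (0.21) and *Dut*, for the enzyme that breaks down dUTP (0.20), were highest, and *Rpa3* (−0.19) and *Pold2* (−0.090) lowest. Base excision repair, the pathway of UNG, had 3 of 6 genes higher and a median of −0.0041, from *Smug1* (−0.17) and *Xrcc1* (−0.10) to *Apex1* (0.039) and *Tdg* (0.087). The 4 mitotic genes had a median of 0.065, from *Cdk1* (0.049) and *Ccnb1* (0.064) to *Plk1* (0.066) and *Ube2c* (0.13). Of the flat reference genes *Actb*, *Gapdh*, *Eef1a1*, *Tbp*, *Ppia*, *Sdha* and *Ywhaz*, 3 of 7 were higher and the median was −0.027, while *Hprt* had too few UMIs. Over the 9691 genes the median was −0.0037 and 48.6% were higher. With DESeq2 size factors that median was 0.0032, so directions and medians this close to 0, such as that of base excision repair, depend on the scaling.

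The second comparison asked how the levels vary over the cell cycle. Cells of at least 10000 UMIs, 2193 in WT against 2843 in the S1/5 dKO-labelled library, were thinned to that number and placed on a circle by a score of S-phase genes and a score of G2/M genes, neither of which used the 10 genes or *Mcm5*. The circle was divided into 8 sectors, from sector 1, centred where both scores are low, past sector 4, where the S score alone is high, to sector 6, where the G2/M score alone is high, and on to sector 8. The periodic fold of a gene is its highest over its lowest sector level. All 10 genes were highest in sectors 3 to 5 in both libraries, which is where the S score was high. Together they went from 908 CPM in sector 8 to 1333 CPM in sector 4 in WT, and from 922 to 1394 CPM in the same sectors of the other library. Of all genes outside the score lists with at least 500 UMIs in a library, 50.2% in WT and 48.5% in the other library also had their highest level in sectors 3 to 5, a grouping chosen after the sectors were seen.

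**Figure D2:**
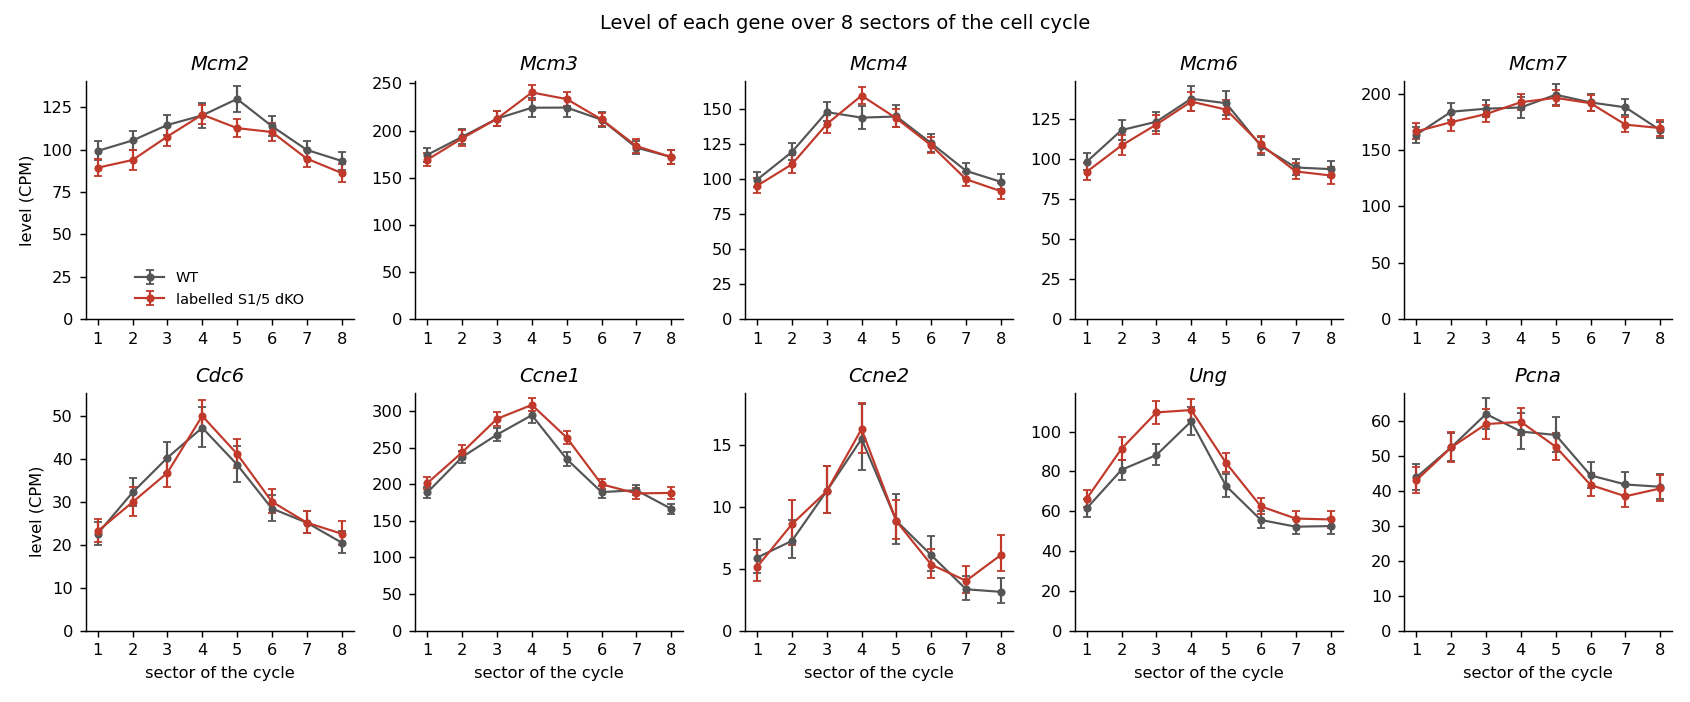
Level of each gene (CPM, vertical axes from 0) in the 8 sectors of the cycle, for WT and the S1/5 dKO-labelled library, with exact 95% Poisson intervals. The curves rise to sectors 3 to 5 and are lowest in sector 7, 8 or 1, with steep curves for *Ccne2*, *Cdc6* and *Ung* and a nearly level curve for *Mcm7*.

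The size of the swing differed among the genes. The median periodic fold was 1.51 in WT, where that of all genes outside the score lists was 1.33, and 1.60 in the S1/5 dKO-labelled library, where it was 1.34. A fold of at least 1.5 was reached by 6 of 10 genes in WT, against 27.1% of 7941 genes, and by 7 of 10 in the other library, against 30.4% of 8219 genes. A fold of at least 2 was reached by 3 of 10 genes in WT, against 3.06%, and by 2 of 10 in the other library, against 4.42%. The extremes of 8 sectors lie further apart where UMIs are few, which bears on *Ccne2* most.

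On this circle *Ccne2*, *Cdc6* and *Ung* had the widest swings. *Ccne2* went from 3.14 CPM in sector 8 to 15.5 CPM in sector 4 in WT, a fold of 4.93 (3.46 to 7.14), and from 4.03 CPM in sector 7 to 16.3 CPM in sector 4 in the S1/5 dKO-labelled library, a fold of 4.04 (3.03 to 5.47). *Cdc6* went from 20.6 to 47.3 CPM in WT and from 22.6 to 50.1 CPM in the other library, folds of 2.30 (1.97 to 2.69) and 2.21 (1.93 to 2.55). *Ccne1* went from 166 to 294 CPM in WT, a fold of 1.77 (1.67 to 1.87), and from 187 to 308 CPM in the other library, a fold of 1.64 (1.57 to 1.72). The mRNA of *Ccne1* thus stayed abundant in its lowest sector, while that of *Ccne2* was scarce there. *Ung* had folds of 2.01 (1.83 to 2.22) in WT and 1.98 (1.81 to 2.17) in the other library, with a top level of 105 and 111 CPM in sector 4. With cells placed after thinning to 5000 UMIs the WT folds of *Ccne2*, *Cdc6*, *Ung* and *Ccne1* were smaller, 2.71, 1.82, 1.64 and 1.52, and lay below these intervals.

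On the same circle the helicase genes swung less than these, apart from *Mcm4*, which passed *Ccne1* in the S1/5 dKO-labelled library. *Mcm4* had the widest swing of them, a fold of 1.51 (1.40 to 1.62) in WT and 1.75 (1.63 to 1.88) in the latter. *Mcm6* followed with 1.47 and 1.51, *Mcm2* with 1.39 and 1.40, and *Mcm3* with 1.30 and 1.42. The order changed with an angle from principal components: *Mcm4*, at 1.84 and 2.06, then passed *Ung* (1.74 and 1.86) in both libraries and *Cdc6* (1.82) in the S1/5 dKO-labelled library, and *Mcm6*, at 1.61 and 1.76, passed *Ccne1* (1.54 and 1.59). *Mcm7*, from 164 to 199 CPM in WT and from 167 to 196 CPM in the other library, had folds of 1.22 (1.14 to 1.30) and 1.18 (1.11 to 1.25), below the median of all genes outside the score lists. Of the genes that lie over *Mcm7* on the other strand, looked at after the values were seen, *Cops6* had folds of 1.14 and 1.15 with its low in sector 4, and *Ap4m1* 1.521 and 1.502 with its high in sector 4. The sources do not say how strand was used in the counting. *Mcm5* had folds of 1.23 (1.17 to 1.30) and 1.35 (1.27 to 1.44).

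*Pcna* had a fold of 1.51 (1.35 to 1.68) in WT and 1.55 (1.40 to 1.73) in the S1/5 dKO-labelled library, and 1.47 and 1.52 with *Pcna-ps2* added. The 4 mitotic genes, which drive or mark mitosis, were highest in sectors 6 and 7 and so on another side of the circle. *Plk1* had folds of 3.12 in WT against 2.45 in the other library, *Ube2c* 3.06 and 2.50, *Cdk1* 2.14 and 1.88, and *Ccnb1* 1.95 and 1.79. These 4 folds were all smaller in the S1/5 dKO-labelled library, whereas 5 of the 10 genes had the larger fold there and 5 the smaller.

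**Figure D3:**
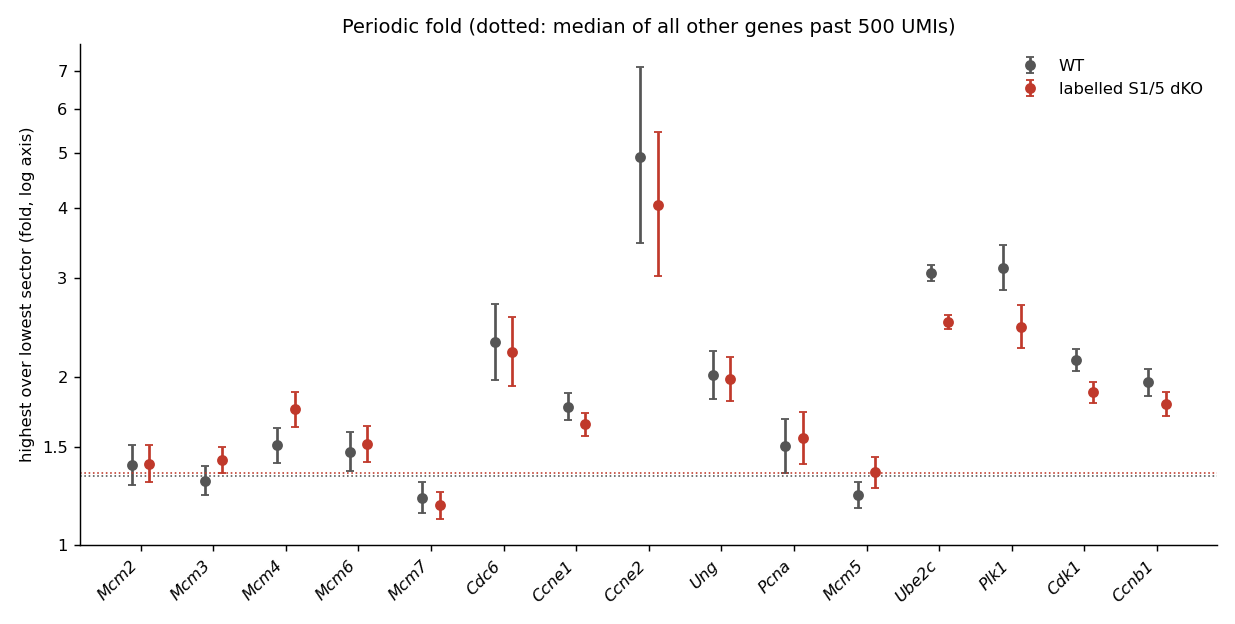
Periodic fold (highest over lowest sector level, log axis) of the 10 genes, *Mcm5* and the 4 mitotic genes in each library, with 95% counting intervals of the ratio between these sectors. Dotted lines mark the median of all genes outside the score lists with at least 500 UMIs, 1.33 in WT against 1.34 in the S1/5 dKO-labelled library, and *Mcm7* lies below them in both libraries.

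The position of the peak on the circle was measured, after the sectors were seen, by the phase of a single wave fitted to the 8 levels. The phase is given in degrees from the centre of sector 1, and is an angle between scores, not a time. *Ung* had the smallest phase of the 10, at 109 degrees in WT and 108 in the S1/5 dKO-labelled library, with *Pcna* (115 and 110), *Ccne1* (117 and 118) and *Ccne2* (122 and 117) close by. *Cdc6* (131 and 140), *Mcm6* (132 and 139) and *Mcm4* (140 and 144) followed. *Mcm3* (151 and 153), *Mcm2* (153 and 157) and *Mcm7* (173 and 167) had the largest phases. The cyclin E genes, *Ung* and *Pcna* thus had smaller phases than *Cdc6* and the 5 helicase genes among the 10 in both libraries, but the sixth helicase gene, *Mcm5* (119 and 121), lay with the cyclin E genes. For scale, the histone gene *Hist1h1b*, transcribed in S phase and named after its values were seen, was at 85.9 and 87.2 degrees, and *Ube2c* at 246 and 250. No interval was computed for a phase, no other placement of the cells was run for it, and neighbours in this order are a few degrees apart.

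**Figure D4:**
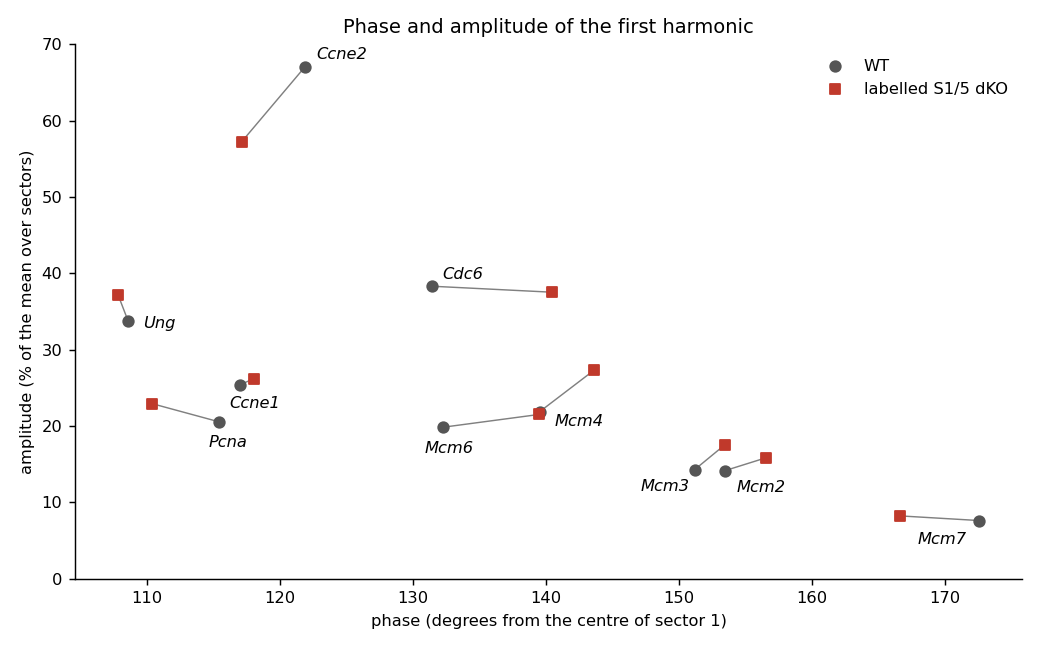
Phase (degrees from the centre of sector 1) against amplitude (percent of the mean level over the sectors) of the wave fitted to each gene, with a line from WT to the S1/5 dKO-labelled library. *Ung*, *Pcna* and the cyclin E genes lie at 108 to 122 degrees, *Cdc6* and the 5 helicase genes among the 10 at 131 to 173 degrees, and *Mcm7* has the smallest amplitude, 7.62% in WT and 8.23% in the other library.

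With the scores as used here, more cells of the S1/5 dKO-labelled library lay where these genes are high. Sectors 3 to 5 held 714 of the 2193 WT cells, 32.6% (exact binomial interval 30.6 to 34.6%), and 1157 of the 2843 cells of the other library, 40.7% (38.9 to 42.5%). The gap remained with cells placed after thinning to 5000 UMIs (34.5% and 40.1%) or without thinning (32.7% and 38.9%). It was small with an angle from principal components (35.8% and 37.3%). Scores standardised within each library also gave a small gap (36.7% and 37.9%), but this centring takes out a difference in mean score by construction. The paper, with tricycle, reports no obvious difference in cell cycle phase. Depth moved along the circle too, from a lowest median of 35773 UMIs per cell in sector 2 to a highest of 46448 in sector 7 in WT. In the S1/5 dKO-labelled library the lowest median was 31256.5 in sector 2 and the highest 40593 in sector 6.

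Within sectors, *Ung* was higher in the S1/5 dKO-labelled library in 8 of 8, with log2 ratios from 0.076 to 0.31 and 4 intervals above 0. *Ccne1* was higher in 7 of 8, from −0.033 to 0.18, with 5 intervals above 0. The direction of both genes thus held in most sectors. *Mcm2*, *Mcm4*, *Mcm6* and *Pcna* were each lower in 7 of 8 sectors, with 3, 1, 1 and 0 intervals below 0, but *Mcm4* was higher in sector 4, with a log2 ratio of 0.15 (0.051 to 0.25) that was larger in size than in its lower sectors. *Mcm5* was lower in 8 of 8, from −0.85 to −0.62. *Cdc6* had no interval clear of 0 in any sector. *Ccne2* was higher in 4 sectors and lower in 4, down to −0.20. Its ratio was largest in sector 8, at 3.14 CPM in WT against 6.11 CPM in the other library, a log2 ratio of 0.96 (0.39 to 1.54), and in the other 7 sectors its interval crossed 0. With each sector given equal weight the median log2 ratio of the 10 genes was −0.0025.

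Genes that work with the 10 swung to different degrees. Of 7895 genes outside the score lists, 19.9% reached 1.5-fold in both libraries, and the counts below also leave out the genes that placed the cells. In the licensing list 1 of 9 genes reached 1.5-fold in both libraries. *Orc1* swung most (1.72 in WT against 1.60 in the S1/5 dKO-labelled library), followed by *Cdt1* (1.48 in both), and *Orc4* (1.30 and 1.17) and *Orc3* (1.18 in both) least. For helicase activation 5 of 12 reached 1.5-fold in both, from *Gins4* (1.13 and 1.17) and *Gins1* (1.18 and 1.195) to *Wdhd1* (1.95 and 2.18) and *Clspn* (2.14 and 2.26). Among the G1/S regulators 12 of 22 did, from *Cdk4* (1.12 and 1.09) and *E2f4* (1.11 and 1.21) to the repressor genes *E2f7* (2.35 and 2.58) and *E2f8* (3.14 and 2.62). This was the largest share among the lists save the mitotic genes, with 4 of 4. Several of these regulators had few UMIs, for example *E2f7* with 506 in WT against 615 in the other library, which sets the extremes further apart. *E2f7* and *E2f8* peaked in sector 4, as 5 of the 10 genes did in WT and 9 in the other library. However, 8 of the 22 regulators had their highest level in sectors 3 to 5 in both libraries, and the others did not.

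For DNA synthesis and nucleotide supply 1 of 18 genes reached 1.5-fold in both libraries, from *Rfc5* (1.06 and 1.047) and *Rfc4* (1.15 and 1.11) to *Chaf1b* (1.79 and 2.08) and *Rrm2* (1.84 and 1.87). In base excision repair 1 of 5 did, from *Apex1* (1.03 and 1.04) and *Polb* (1.12 in both) to *Tdg* (1.47 and 1.67) and *Mbd4* (1.75 and 1.83). *Ung*, at 2.01 and 1.98, thus had a larger fold than each of these 5 repair genes. Of the flat reference genes 0 of 7 reached 1.5-fold, the lowest being *Actb* (1.06 and 1.10) and *Ppia* (1.08 and 1.10) and the highest *Ywhaz* (1.26 and 1.29) and *Sdha* (1.37 and 1.32). *Clspn*, *E2f8*, *Chaf1b* and *Rrm2* are among the S-phase genes that placed the cells, so their own swings are not independent of the order and are given as description.

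The third comparison asked whether the genes vary together from cell to cell. Pearson's r was taken across the thinned cells of each library, which share library and depth, for the 45 pairs. The median r was 0.041 in WT (range −0.047 to 0.18) and 0.056 in the S1/5 dKO-labelled library (0.0062 to 0.19), and r was above 0 for 41 and 45 of the 45 pairs. Over all pairs of genes with at least 500 thinned UMIs, a minimum that *Ccne2* alone of the 10 missed, the median was 0.0012 in both libraries, and 51.9% and 52.2% were above 0. The values are weak, and each cell held few UMIs of each gene, for example a mean of 0.332 UMIs of *Cdc6* in a thinned WT cell. An r of at least 0.1 was reached by 3 pairs in WT and 6 in the other library, against 0.259% and 0.229% of all gene pairs.

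In WT the 3 strongest pairs joined *Ccne1*, *Ung* and *Cdc6*. *Ccne1* with *Ung* had r = 0.18 in WT against 0.19 in the S1/5 dKO-labelled library, *Ccne1* with *Cdc6* 0.16 and 0.15, and *Cdc6* with *Ung* 0.15 and 0.12. In the latter library *Ccne1* with *Ccne2*, at 0.13, and *Mcm3* with *Mcm4* came before *Cdc6* with *Ung*. With the mean of each sector taken out, *Ccne1* with *Ung* stayed at 0.15 in both libraries, and the median of the 45 pairs was 0.025 and 0.032. Most of the correlation of this pair thus lay within sectors. Among helicase genes *Mcm3* with *Mcm4* had r = 0.086 and 0.12, *Mcm3* with *Mcm6* 0.084 and 0.11, and *Mcm4* with *Mcm6* 0.087 and 0.095. *Mcm7* had r from −0.047 to 0.050 in WT, where *Mcm7* with *Ccne1* was the lowest pair, and from 0.014 to 0.057 in the other library, where *Mcm2* with *Pcna* (0.0062) was the lowest. A correction for counting error raised *Ccne1* with *Ung* to 0.74 and 0.78, but gave values past 1 for other pairs and is imprecise.

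**Figure D5:**
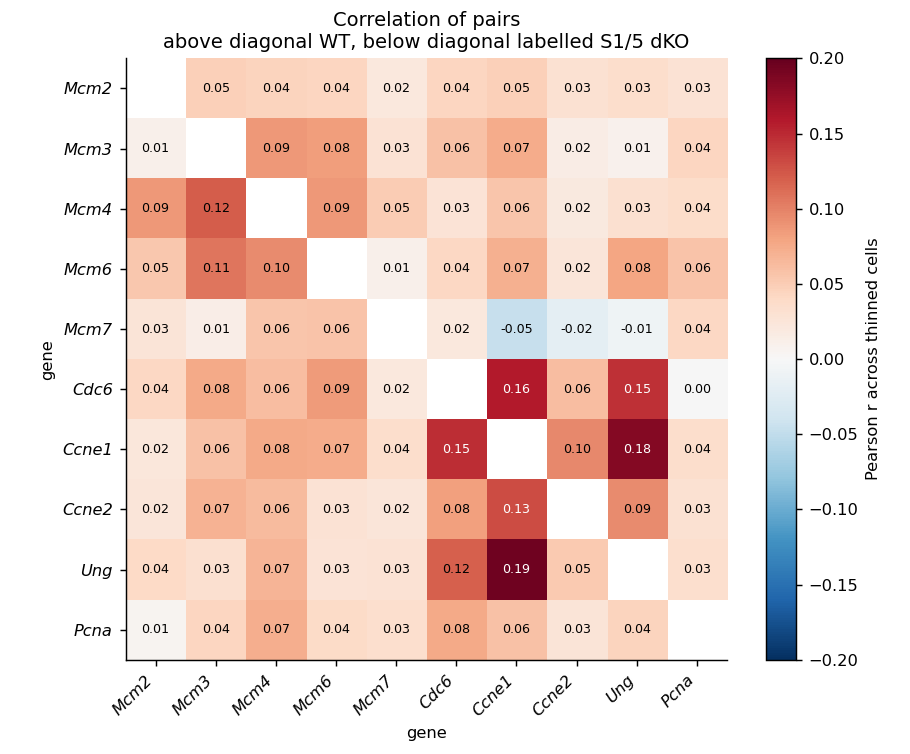
Pearson's r of each pair of the 10 genes across thinned cells, with WT (2193 cells) above the diagonal and the S1/5 dKO-labelled library (2843 cells) below it, on a colour scale from −0.20 to 0.20. *Ccne1* with *Ung* and *Ccne1* with *Cdc6* are the darkest fields on both sides of the diagonal, and *Mcm7* is pale or blue in WT.

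The correlations with *Ung* can also be given as levels, in the same cells grouped by their *Ung* count, a grouping chosen after the correlations were seen that adds no separate evidence. *Ccne1* was at 197 CPM (189 to 205) in the 1140 WT cells with 0 *Ung* UMIs and at 298 CPM (269 to 329) in the 130 WT cells with 3 or more. In the S1/5 dKO-labelled library it was at 208 CPM in the 1372 cells without *Ung* UMIs and at 324 CPM in the 200 cells with 3 or more. *Cdc6* went the same way, from 24.3 to 45.4 CPM in WT and from 25.7 to 44.0 CPM in the other library. *Ccne2* (4.91 to 10.8 CPM in WT, 7.94 to 12 CPM in the other library), *Pcna* (50.6 to 65.4 and 46.5 to 54.5 CPM) and *Mcm4* (117 to 128 and 115 to 138.5 CPM) had higher values in the cells with 3 or more, but with overlapping intervals save for *Mcm4* in the other library, and *Mcm7* was level, at 179 and 178 CPM in WT and at 177 and 179 CPM in the other library. In the larger group of 661 WT cells with 1 *Ung* UMI, *Ccne2* was at 9.53 CPM (7.32 to 12.2). This lay clear of its 4.91 CPM (3.71 to 6.38) in WT cells with 0. In the other library the intervals of these groups overlapped, at 9.09 CPM (7.21 to 11.3) and 7.94 CPM (6.52 to 9.58). *Pcna* was lower in WT cells with 1 *Ung* UMI, at 48.6 CPM, than in those with 0. The variance over mean of the thinned counts was largest for *Ccne1*, at 1.41 in WT against 1.53 in the other library, then for *Ung* (1.22 and 1.24) and *Cdc6* (1.16 and 1.17). Its median was 1.06 in both libraries over the genes with at least 500 thinned UMIs, 4296 in WT and 4955 in the other library. This measure grows with the level: as a coefficient of variation beyond counting error, *Ccne2* (109% and 71.2%), *Cdc6* (68.6% and 72.1%) and *Ung* (55.1% and 53.8%) lay above *Ccne1* (42.7% and 47.1%).

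Among 6267 genes with at least 1000 UMIs in each library, those most like the 10 in summed level across thinned cells were *Ncl* (r = 0.26 in WT against 0.23 in the S1/5 dKO-labelled library), *Nasp* (0.22 and 0.26), *Hspd1* (0.21 and 0.25), *Hells* (0.20 and 0.25) and *Hnrnpu* (0.20 in both). After them came *Hspa4*, *Lmnb1*, *Rrm2*, *Prrc2c* and *Cdv3*, with r from 0.17 to 0.21. *Nasp*, *Hells* and *Rrm2* are among the S-phase genes that placed the cells. The highest sectors of these 10 genes were 4 to 6, and their log2 ratios lay between −0.028 and 0.15.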

How the data were processed

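UMI counts per gene and barcode, unnormalized and for all barcodes, were deposited by the authors, who used Cell Ranger 3.0.2 with mm10. The filter of the study was kept: no fewer than 1000 detected genes and no more than 5% of UMIs from mitochondrial genes. Doublets were not removed; 135 WT cells and 140 cells of the S1/5 dKO-labelled library with more than 2 times the median depth were left out as an alternative. UMIs were summed over the cells of a library and divided by all UMIs of those cells (CPM). Intervals are exact at 95%: Poisson for a level, the binomial split of both sums for a ratio, Clopper-Pearson for a share. With 1 library per condition no test was run. The procedure was tested on simulated data, but no result of that test is given here and no value rests on it.

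For the order of cells, cells of at least 10000 UMIs were thinned to 10000 UMIs (seed 1). Per-cell values were ln(1 + counts per 10000). The S list (35 of 43 genes) and the G2/M list (52 of 54) of Seurat 5.3.0 were used without the genes described, *Mcm5* and the 4 mitotic genes. Scores were standardised over the cells of both libraries, their angle was divided into 8 sectors of 45 degrees, and levels per sector came from unthinned sums. The tricycle package of the study was not at hand. Genes with at least 500 UMIs served as background. Correlations were corrected for counting error only where the variance over mean passed a minimum.

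The genes and the lists were chosen with earlier results of these data known. Genes named are the 10, *Smad1* and *Smad5*, *Mcm5*, the mitotic and flat reference genes, in each list the 2 highest and 2 lowest log2 ratios and periodic folds (the smaller of both libraries), and the 10 genes most correlated with the summed level of the 10 (the smaller r of both libraries). From the cell marker lists, the pluripotency markers, the most abundant gene of each list and fibroblast markers without UMIs are also named. *Tcstv3* is named for the size of its difference. Other genes outside this rule are marked in the text. Alternatives were edgeR 4.0.16 TMM and DESeq2 1.42.0 size factors (used for scaling only), means of per-cell CPM, thinning, other limits on cells, sectors and background, an angle from principal components, Spearman's rho, and, chosen after seeing the data, scores standardised within each library and cells of at least 10000 UMIs unthinned. Positions are from GENCODE vM21. Versions were Python 3.11.15, numpy 2.4.6, scipy 1.17.1, pandas 2.3.3, matplotlib 3.10.9 and R 4.3.3.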

Additional observations from a re-analysis of the deposited data

How the results depend on the processing

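The log2 ratios of *Mcm2*, *Pcna* and *Mcm5* stayed below 0, and those of *Ccne1* (0.089 to 0.13), *Ccne2* (0.096 to 0.31) and *Ung* (0.14 to 0.21) above 0, under the 10 alternatives tried. *Mcm4*, *Mcm6* and *Mcm7* lay near 0 with either sign. With each cell thinned to 10000 UMIs the median log2 ratio of the 10 genes was −0.0067, and *Mcm3* (−0.026, interval −0.083 to 0.031) and *Cdc6* (−0.038, interval −0.18 to 0.10) reversed, within counting error of 0 in that single draw. The same cells unthinned gave 0.050 and 0.096, and means of per-cell CPM over all cells gave 0.022 and 0.072. The limit on cells and equal weight for cells were not run together without thinning, and the cause was not tested. With sectors weighted equally the median was −0.0025, for which the cause was not tested. The other 101 log2 ratios of single genes under an alternative stayed inside their counting interval and 7 left it without a called reversal.

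The median periodic fold in the S1/5 dKO-labelled library was 1.76 with the angle from principal components and 1.77 without the cells nearest the centre of the score plane, and the number of genes past 1.5-fold ranged from 5 to 8 in WT and from 6 to 8 in the other library. Of the periodic folds of single genes, 60 of WT and 64 of the other library stayed inside their counting interval and 20 and 16 left it. The share of cells in sectors 3 to 5 was 35.8% in WT and 37.3% in the S1/5 dKO-labelled library with principal components, against 34.5% and 40.1% with cells thinned to 5000 UMIs and 32.7% and 38.9% without thinning. Scores standardised within each library, an alternative chosen after seeing the data, gave 36.7% and 37.9%, but this centring takes out a difference in mean score by construction. The cause was not tested.

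The median correlation was 0.0180 in WT against 0.0343 in the other library with cells thinned to 5000 UMIs, where counting error is larger, and 0.127 and 0.134 in unthinned cells, where depth differs between cells. With genes of at least 50 UMIs as background, 20.5% were at least 1.2-fold apart and 1.30% at least 2-fold. Depth limits *Ccne2* most, with 688 and 904 UMIs, and no alternative replaces a second library. No paired analysis was possible because each condition has 1 library.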

Other observations

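Barcodes with 10 to 100 UMIs, 72422 in WT against 72397 in the S1/5 dKO-labelled library, lie below the limits for a cell. In them the 10 genes together were at 949 and 930 CPM, against 1092 and 1126 CPM in cells. *Pcna* was higher there than in cells, at 81.6 CPM in WT against 75.6 CPM in the other library, and *Mcm3* lower, at 133 and 128 CPM. *Ccne2* was also higher there, at 11.3 and 9.19 CPM, in the opposite order of libraries to cells but from only 20 and 18 UMIs, and *Mcm2* was higher there in WT, at 121 CPM. *Mcm5* was at 156 and 110 CPM in these barcodes, lower in the S1/5 dKO-labelled library as it was in cells.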
